A study of Homo sapiens with 6 samples.

Results

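The genes described here were the ZNF genes of human chromosome 19, the largest gathering of C2H2 zinc finger genes in the genome. They were picked from the deposited table by a name made of ZNF, a number and at most 1 letter, by a position on chromosome 19, and by a mean of at least 20 counts over the 6 samples. Of 261 such genes among the 58735 genes of the table, 204 met the mean count and are called members below. The mean count chose the members, so that level is a description and was not tested. The difference between the groups is not part of the rule, but the members were chosen with earlier results of these data known. The samples were cultures of PANC-1, a single established cell line from a human pancreatic ductal adenocarcinoma, transfected with control siRNA (si-NC, 3 samples) or with siRNA against METTL16 (si-METTL16, 3 samples), and the study describes them as biological triplicates. METTL16 is an RNA methyltransferase that modifies U6 snRNA and the mRNA of the SAM synthetase gene MAT2A. A label of the si-NC samples reads WT in place of a control siRNA, the siRNA sequence, dose and time are not given in the sources used here, and the study's methods call the transfection stable. RNA-seq of mRNA libraries gave counts per gene, and the comparison asked which transcripts differed after METTL16 was silenced.

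C2H2 zinc finger proteins read DNA through a row of small zinc-binding loops called fingers, and the series of fingers in a protein sets the sequence it binds. In most primate members of the family an N-terminal KRAB domain binds the co-repressor TRIM28, which brings the H3K9 methyltransferase SETDB1 and HP1 proteins to the bound site, and many of these sites lie in transposable elements. The genes arose by repeated tandem duplication and therefore lie in clusters of related copies on chromosome 19. The clusters themselves carry H3K9me3 over their 3′ exons, placed there in part by the member ZNF274.

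The siRNA target was measured first. METTL16 had 1546, 1641 and 1764 counts in si-NC samples and 571, 528 and 627 in si-METTL16 samples, a log2 fold change of -1.48 ± 0.07 (SE). The total per sample ran from 15725298 to 18054436 counts, and no pair of samples within a group was a repeat of the other. Of the ductal markers 6 reached a mean of 20 counts, with CFTR near 0, while none of 4 acinar and none of 4 endocrine markers did, and of 3 immune markers only CD68 did. The summed FPKM of the 3 fibroblast markers was 25.1 to 29.0 in si-NC and 60.9 to 64.5 in si-METTL16 samples, nearly all of it COL1A1, with DCN and LUM at mean counts of 0.5 and 4. The part of these marker differences in the results below was not tested.

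The promoters of the members were searched for the letters of known sites. RefSeq (GRCh38.p14) holds a window of 250 bases before to 50 after the start for 181 of the 204 members. The letters CCGGAAG, or CTTCCGG on the other strand, which are the core bound by ETS factors, were present in 81 of these windows (44.8%), against 10.7% of all 27305 promoters of the same length. Windows that hold the core are printed as examples for members whose values follow, read along the strand of the gene, with the ETS core in capitals. They are ZNF616 (chr19:52139889-52140188, minus strand), ZNF726 (chr19:23914636-23914935, plus strand) and ZNF274 (chr19:58182811-58183110, plus strand), which were called higher, and ZNF580 (chr19:55640752-55641051, plus strand), which was called lower.
ZNF616: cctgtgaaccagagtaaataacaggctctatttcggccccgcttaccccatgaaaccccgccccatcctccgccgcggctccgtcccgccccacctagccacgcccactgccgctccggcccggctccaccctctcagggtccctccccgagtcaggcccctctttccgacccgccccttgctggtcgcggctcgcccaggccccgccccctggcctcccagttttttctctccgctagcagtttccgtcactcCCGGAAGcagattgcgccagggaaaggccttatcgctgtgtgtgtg
ZNF726: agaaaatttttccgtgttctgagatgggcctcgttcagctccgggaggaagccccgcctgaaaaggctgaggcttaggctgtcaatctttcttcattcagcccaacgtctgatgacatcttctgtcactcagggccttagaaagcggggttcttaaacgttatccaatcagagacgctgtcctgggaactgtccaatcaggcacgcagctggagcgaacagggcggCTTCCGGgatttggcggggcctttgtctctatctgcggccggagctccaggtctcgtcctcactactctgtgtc
ZNF274: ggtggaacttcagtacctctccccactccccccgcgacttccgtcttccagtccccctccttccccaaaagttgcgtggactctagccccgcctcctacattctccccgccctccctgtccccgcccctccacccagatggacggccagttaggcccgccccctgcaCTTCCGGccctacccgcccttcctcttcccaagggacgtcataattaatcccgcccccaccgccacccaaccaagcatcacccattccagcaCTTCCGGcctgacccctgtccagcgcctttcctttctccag
ZNF580: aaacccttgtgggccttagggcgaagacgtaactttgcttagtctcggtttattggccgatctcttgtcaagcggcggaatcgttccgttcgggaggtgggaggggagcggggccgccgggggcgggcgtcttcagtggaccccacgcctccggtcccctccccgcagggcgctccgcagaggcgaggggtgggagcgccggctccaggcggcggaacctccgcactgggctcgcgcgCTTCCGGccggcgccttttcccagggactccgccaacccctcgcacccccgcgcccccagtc
Of 90 matches in member windows 80 lay within 100 bases of the start, with a median position of -15 counted from the start. The ETS core was in 28 of 56 windows of members called higher and in 52 of 121 of those not called, and the median log2 fold change was 0.34 in 81 members with it and 0.33 in 100 members without it. A match is a run of letters and was not shown to be a bound site. Member windows also held more CG pairs (median 20, against 14 over all promoters), and those promoters were not limited to expressed genes. Other letters searched on both strands, whose matches may overlap, were the GC box GGGCGG in 66.9% of member windows (44.6% of all promoters), CCAAT in 53.6% (35.7%), the YY1 core AANATGGC in 14.9% (6.82%) and the E2F sites TTTCCCGC or TTTGGCGC in 4.97% (2.31%). The E2F letters were in none of 56 windows of members called higher and in 9 of 121 of those not called, while the median log2 fold change was 0.32 in the 9 members with them and 0.34 in the 172 without. RefSeq starts can lie apart from the gene starts of the deposited table.

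More members were higher than lower in METTL16-silenced cells. With edgeR's quasi-likelihood test, and p adjusted by Benjamini-Hochberg over all 15089 genes, 64 of 204 members were called higher (31.4%, against a background of 18.4% of all genes) and 6 were called lower (2.94%, against 17.5%). The other 134 members did not pass the threshold of 0.05. All 204 passed the filter on low counts, and 91 had an unadjusted p below the same value. The median log2 fold change of the members was 0.34 (quartiles -0.02 and 0.66), a 1.26-fold difference, beside -0.004 over all genes. A positive value was found in 151 members (74.0%), beside 49.5% of all genes.

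**Figure D1:**
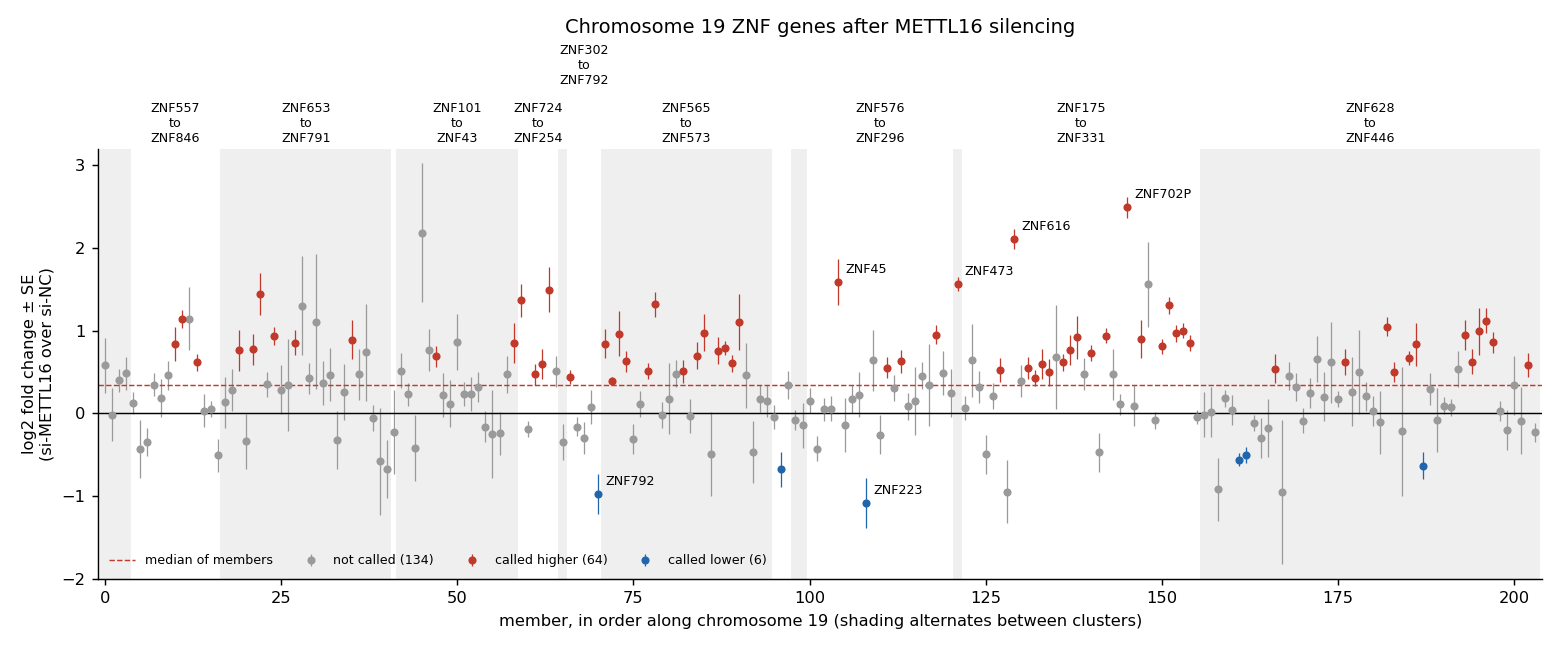
Log2 fold change of each member (si-METTL16 over si-NC, y axis, bars are SE) in order along chromosome 19 (x axis), coloured by the edgeR call, with alternate clusters shaded and clusters of 5 or more members named. The 64 members called higher stand in most clusters and make up 4 of 6 members from ZNF724 to ZNF254, 13 of 24 from ZNF565 to ZNF573 and 18 of 34 from ZNF175 to ZNF331, while the 6 called lower are scattered.

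The difference was seen in every sample. Members took 0.304%, 0.306% and 0.321% of all counts in si-NC samples and 0.381%, 0.387% and 0.366% in si-METTL16 samples, so the groups did not overlap. Their CPM (counts scaled to an equal library size) summed to 3085 ± 89.2 (SD, n = 3) in the si-NC and 3816 ± 119 in the si-METTL16 samples. Without the 3 members of highest FPKM, which held 22.7% to 29.8% of the sum, it was 2247, 2351 and 2238 CPM against 2951, 2966 and 2804 CPM. The median log2 ratio of a member to its si-NC mean was 0.29, 0.39 and 0.30 in the 3 si-METTL16 samples and -0.04, 0.04 and 0.00 in the si-NC samples. Every si-METTL16 sample lay above every si-NC sample in 84 members (41.2%, background 25.7%) and below in 10 (4.90%, background 25.2%).

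**Figure D2:**
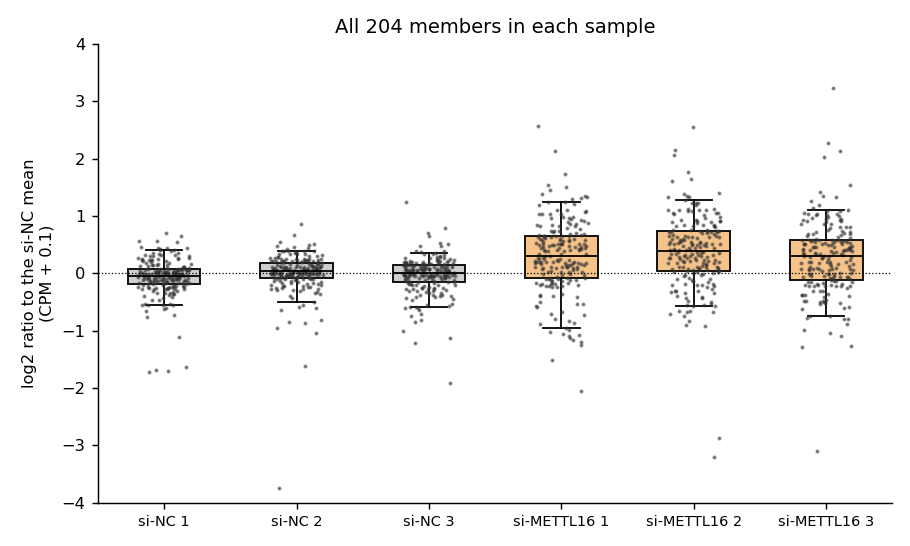
Log2 ratio of each of the 204 members to its si-NC mean after adding 0.1 CPM (y axis) in each sample (x axis); boxes show quartiles and median, whiskers the 5th and 95th percentiles, and points single members. Medians of the si-METTL16 samples lie at 0.29 to 0.39, and the scatter is wider than in si-NC samples, whose own mean is the reference.

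Most members were expressed at low levels, with a median of 1.02 FPKM beside 3.04 over all genes tested. The excess of higher calls was present above the lowest levels. Among 27 members with 20 to 50 mean counts 7.41% were called higher, beside 8.10% of 1481 genes in the same range. At 50 to 150 counts it was 26.0% of 77 members beside 12.6% of genes, at 150 to 500 counts 39.7% of 78 beside 18.4%, and at 500 or more 11 of 22 beside 24.6%. The median log2 fold change stayed between 0.30 and 0.36 in these 4 ranges. The log2 fold changes followed the mean count weakly (Spearman rho 0.05 across 204 members, which are not independent replicates). Members at the threshold were ZNF253, ZNF137P and ZNF878 just inside it, with mean counts of 20.2, 20.2 and 20.7, and ZNF284, ZNF491 and ZNF497 just outside it, with 14.8, 14.5 and 13.8.

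The members lie in 15 groups when a new one begins at a distance of over 1 Mb between neighbouring starts, and 9 of these hold 5 or more members and 192 in all. The median log2 fold change of these 9 clusters ran from -0.16 to 0.57 and was positive in 8. The summed CPM was higher in every si-METTL16 sample than in every si-NC sample in all 9 clusters. In 8 of them more members were called higher than lower. The other, from ZNF302 to ZNF792, was the cluster of negative median. Of its 5 members 1 was called higher, ZNF302 (log2 fold change 0.44, edgeR's quasi-likelihood test, adjusted p = 0.0067), and 1 lower, ZNF792. Its summed levels were close, at 73.0, 75.4 and 68.3 CPM in si-NC and 77.5, 77.5 and 75.7 CPM in si-METTL16 samples.

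**Figure D3:**
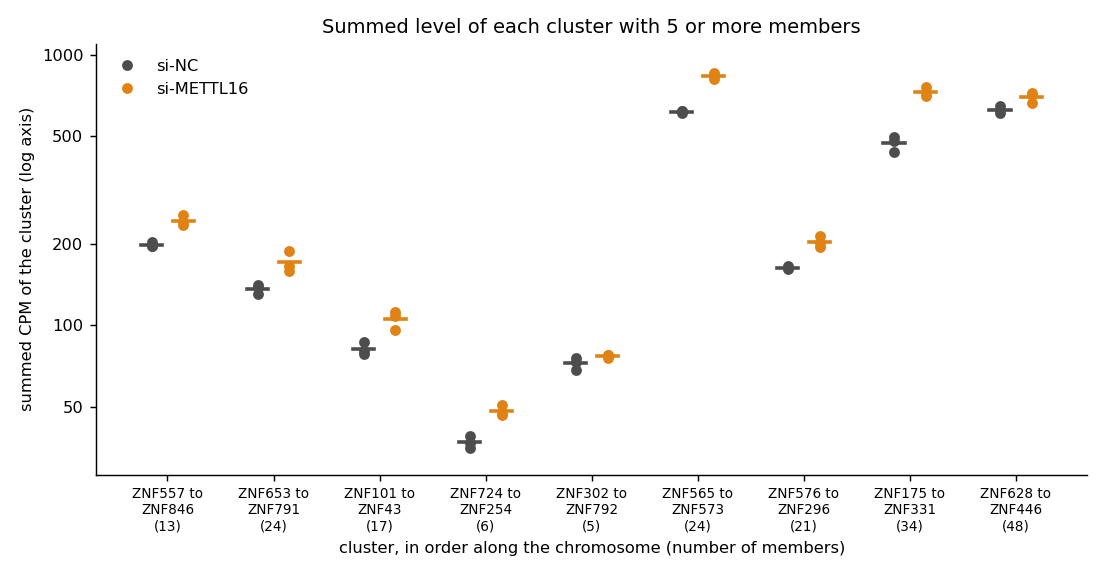
Summed CPM (log axis) of the members of each of the 9 clusters with 5 or more members, in order along the chromosome, for each si-NC (grey) and si-METTL16 (orange) sample, with bars for group means. The groups do not overlap in any cluster, and the gap is widest from ZNF175 to ZNF331 (437 to 498 against 703 to 763 CPM).

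The cluster from ZNF175 to ZNF331, near the distal end of the long arm, contained 34 members over 51.6 to 53.6 Mb, of which 18 were called higher and none lower. Its median log2 fold change was 0.57, and its summed level was 437, 498 and 480 CPM in the si-NC samples against 763, 727 and 703 CPM after silencing. It held the 2 largest changes among all members called. ZNF702P (chr19:52968251-53037898, minus strand), annotated as a transcribed pseudogene, had 85, 89 and 86 counts in si-NC and 501, 471 and 445 in si-METTL16 samples. This was a 5.62-fold difference, with a log2 fold change of 2.49 ± 0.12 (edgeR's quasi-likelihood test, adjusted p = 9e-05). ZNF616 (chr19:52113091-52139922), a KRAB protein with 22 fingers, had 52, 55 and 60 counts against 239, 217 and 244, a log2 fold change of 2.11 ± 0.12. In both genes the lowest si-METTL16 sample stood far above the highest si-NC sample. Both overlap another annotated gene, whose reads may have entered these counts.

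Calls in this cluster often came side by side. The neighbours ZNF845, ZNF525, ZNF765, ZNF761 and ZNF813 were all called higher, with log2 fold changes of 0.81, 1.30, 0.97, 1.00 and 0.85, and so were ZNF766, ZNF480, ZNF808 and ZNF701, at 0.55, 0.43, 0.59 and 0.50. These genes were picked out after their values were seen, for standing next to one another. ZNF808, whose loss in humans impairs formation of the pancreas, had 107, 79 and 92 counts in si-NC and 145, 140 and 121 in si-METTL16 samples. Its groups did not overlap, and its call (edgeR, adjusted p = 0.041) was kept in 2 of 6 fits that each left out a sample. ZNF331, an imprinted gene at the end of the cluster, had 698, 708 and 777 counts against 712, 583 and 764, with overlapping groups and a log2 fold change of -0.05 ± 0.09.

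From ZNF565 to ZNF573, over 36.2 to 37.8 Mb, 13 of 24 members were called higher and none lower. The summed level was 611, 622 and 621 CPM in the si-NC samples against 840, 856 and 815 CPM after silencing, and the median log2 fold change was 0.50. ZNF146, which consists almost wholly of zinc fingers and had the highest FPKM of all members, showed 35.0, 35.2 and 35.5 FPKM in si-NC and 45.9, 46.2 and 43.9 in si-METTL16 samples. Its log2 fold change of 0.39 ± 0.05 (edgeR's quasi-likelihood test, adjusted p = 0.0011) was the smallest among members called higher. ZNF569, with the lowest adjusted p of this cluster, rose from 376, 407 and 384 counts to 670, 629 and 660. The lettered copies ZNF585A and ZNF585B both rose, by 0.70 ± 0.17 and 0.98 ± 0.22 on the log2 scale, with ZNF585B at 441, 411 and 807 counts in si-METTL16 samples. These copies have 21 fingers each, and reads that fit both could have been divided between them in counting.

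These 2 clusters held 31 of the 64 members called higher. They were singled out for their values, and outside them 33 of 146 members were called higher (22.6%) and 6 lower (4.11%), with a median log2 fold change of 0.25. Values of neighbours were only loosely alike, with a Pearson r of 0.08 and a Spearman rho of 0.17 over 189 neighbouring pairs of a cluster, given as a description.

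From ZNF724 to ZNF254, a small cluster, 4 of 6 members were called higher and none lower, with a median log2 fold change of 0.55. Among them were ZNF726 (17, 25 and 21 counts against 62, 63 and 47, log2 fold change 1.50 ± 0.27) and ZNF724 (24, 27 and 33 against 64, 70 and 77, log2 fold change 1.37 ± 0.20). In the same cluster ZNF91, which silences SVA retrotransposons, had 243, 250 and 268 counts against 222, 197 and 230. Its si-METTL16 samples all lay below its si-NC samples, and its log2 fold change of -0.19 ± 0.10 was not called.

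On the short arm, 6 of 24 members from ZNF653 to ZNF791 were called higher. The largest change among them was in ZNF439 (log2 fold change 1.45), and the lowest adjusted p in ZNF700, with 160, 177 and 188 counts against 344, 298 and 335. From ZNF557 to ZNF846 it was 3 of 13 (23.1%, background 18.4%). The lowest adjusted p there was in ZNF266, which had 185, 191 and 185 counts against 412, 400 and 386, a log2 fold change of 1.14 ± 0.11. From ZNF101 to ZNF43 it was 2 of 17 (11.8%, below the background of 18.4%), the pseudogene ZNF826P (114, 120 and 111 counts against 189, 176 and 174) and ZNF43 (82, 137 and 98 against 139, 208 and 209). The call of ZNF43 was kept in 2 of 6 fits that left out a sample. None of the 4 members from ZNF554 to ZNF77 was called, and ZNF57, with the lowest adjusted p there, had 86, 94 and 94 counts against 104, 111 and 137.

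From ZNF576 to ZNF296, 4 of 21 members were called higher (near the background of 18.4%) and 1 lower. ZNF45 had 94, 97 and 100 counts in si-NC and 223, 191 and 453 in si-METTL16 samples, so the groups did not overlap and 1 sample stood high. Its log2 fold change was 1.59 ± 0.28, and 1.19 without that sample. ZNF229 rose more evenly, from 177, 201 and 220 counts to 401, 328 and 395. ZNF224, which represses the aldolase A gene, had 188, 144 and 87 counts against 277, 216 and 137, with overlapping groups, and was not called.

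At the end of the long arm, from ZNF628 to ZNF446, 12 of 48 members were called higher and 3 lower. ZNF134 rose from 298, 351 and 331 counts to 613, 695 and 657. ZNF274, which binds the 3′ ends of zinc finger genes and recruits SETDB1 there, had 112, 136 and 162 counts in si-NC and 312, 272 and 279 in si-METTL16 samples. The log2 fold change of ZNF274 was 1.12 ± 0.15 (edgeR's quasi-likelihood test, adjusted p = 0.0017), and the call was kept in all 6 fits that left out a sample. ZNF274 stood in a row of 5 neighbours called higher, with ZNF256, ZNF606, ZNF329 and ZNF544.

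ZNF473 stood apart from any cluster and was among the sharpest changes. It encodes ZFP100, a subunit of the U7 snRNP machinery that cuts the 3′ ends of histone mRNAs. Counts were 211, 211 and 221 in si-NC and 583, 602 and 658 in si-METTL16 samples, a log2 fold change of 1.56 ± 0.08 (edgeR's quasi-likelihood test, adjusted p = 9.2e-05).

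**Figure D4:**
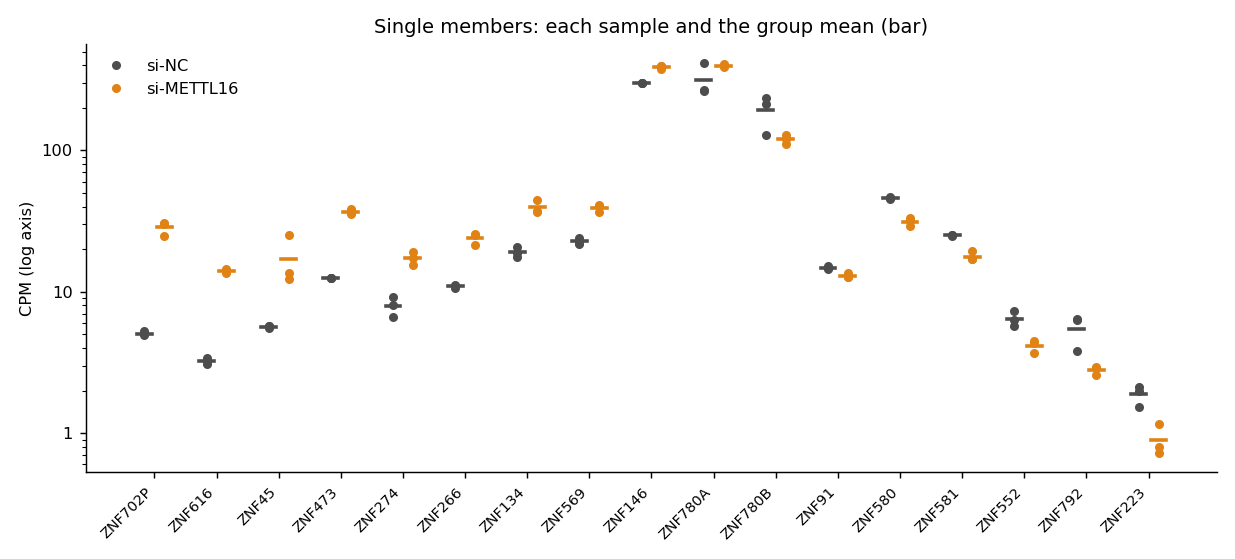
CPM (log axis) of single members in each si-NC (grey) and si-METTL16 (orange) sample, with bars for group means. ZNF702P to ZNF569 were called higher, ZNF146 is the member of highest FPKM, ZNF780A and ZNF91 were not called, and ZNF580 to ZNF223 and ZNF780B were called lower; the si-NC samples of ZNF780B spread widely.

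The 6 members called lower showed smaller changes. ZNF580 (766, 783 and 824 counts against 520, 454 and 595, log2 fold change -0.56 ± 0.08) and ZNF581 (422, 430 and 441 against 278, 265 and 347, log2 fold change -0.50 ± 0.09) were the only ones whose calls were kept in all 6 fits that left out a sample. Both are short proteins with 3 and 4 fingers and no KRAB match, and their gene spans overlap on the same strand, so their counts may not be separate measurements. ZNF223 had 36, 26 and 35 counts against 13, 18 and 13, ZNF792 had 64, 107 and 112 against 42, 45 and 53, and ZNF552 had 97, 124 and 110 against 60, 68 and 80. In each of these the groups did not overlap, and the call was kept in 2 of the 6 fits.

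ZNF780A and ZNF780B, neighbouring copies with the highest FPKM after ZNF146, had different calls. ZNF780A had 14.4, 14.3 and 22.4 FPKM in si-NC and 21.2, 21.7 and 20.8 in si-METTL16 samples and was not called. Its groups overlapped, and its log2 fold change of 0.34 ± 0.17 ran from 0.22 to 0.58 when a sample was left out, with a call (edgeR, adjusted p = 0.0024) only without si-NC replicate 3. ZNF780B had 16.7, 10.0 and 18.4 FPKM against 9.27, 9.99 and 8.60, a log2 fold change of -0.68 ± 0.21 (edgeR's quasi-likelihood test, adjusted p = 0.041). The si-NC samples of ZNF780B alone ranged from 2177 to 4123 counts, and its call was kept in 1 of 6 fits that left out a sample. Of the other lettered copies, ZNF587 and ZNF587B were not called (log2 fold changes 0.09 ± 0.10 and 0.30 ± 0.19), while ZNF324 was called higher (0.58 ± 0.15) and ZNF324B was not (-0.09 ± 0.40).

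By protein make-up, members with a match to a KRAB pattern, called KRAB members here, had the higher median. The pattern is a search for letters and not a domain annotation, so members without a match may still hold the domain. A KRAB pattern was found in the translated transcript of 171 of the 199 protein-coding members, of which 55 were called higher and 4 lower, with a median log2 fold change of 0.37. In 28 members without a match to this pattern 7 were called higher and 2 lower, with a median of 0.00. KRAB members had a median of 13 fingers (5 to 32) and the others 8.5 (1 to 21). Members with 15 or more fingers had a median log2 fold change of 0.46 (24 of 68 called higher), those with 10 to 14 fingers 0.33 (24 of 82) and those with up to 9 fingers 0.21 (14 of 49).

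Among KRAB members alone the corresponding medians were 0.47, 0.32 and 0.48, without an order by finger number. Among the members without a KRAB match none of 14 with under 9 fingers was called higher and 2 were called lower, with a median of -0.22. Of 14 with 9 or more fingers 7 were called higher, namely ZNF473, ZNF134, ZNF329, ZNF260, ZNF121, ZNF83 and ZNF146, and none lower. The limit of 9 fingers was chosen after the values were seen. All 5 pseudogene members had positive values, and 2 of them, ZNF702P and ZNF826P, were called higher.

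**Figure D5:**
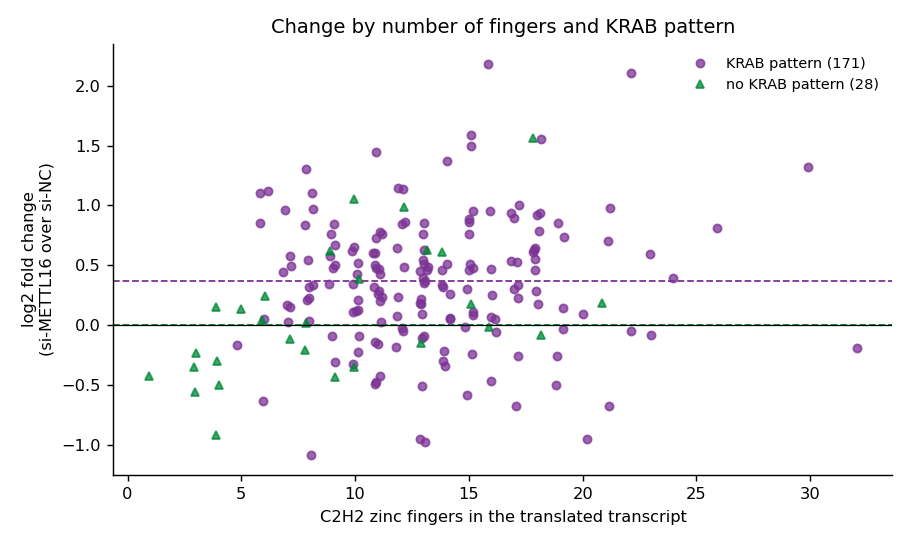
Log2 fold change (si-METTL16 over si-NC, y axis) against the number of C2H2 fingers in the translated transcript (x axis) for 171 members with and 28 without the KRAB pattern; dashed lines are medians, 0.37 and 0.00. Members without the pattern and with few fingers lie mostly at or below 0, and the others spread above it.

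Zinc finger genes elsewhere gave smaller values. Of 226 ZNF genes on other chromosomes at the same mean count 46 were called higher (20.4%) and 13 lower (5.75%), with a median log2 fold change of 0.11. Those with the KRAB pattern had a median of 0.33 (23 of 91 called higher, 25.3%, and 1 lower) and those without it 0.06 (20 of 128 and 12). The KRAB members of chromosome 19 had a median of 0.37, with 32.2% called higher, and the members without the pattern a median of 0.00. The 793 other genes of chromosome 19 that were tested had a median of -0.07, with 15.1% called higher and 21.6% lower. No test was run on these differences between lists.

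The co-repressor machinery that KRAB proteins use did not share a direction. Of 32 listed genes 10 were called higher (31.2%, against 18.4% of all genes) and 7 lower (21.9%, against 17.5%), with a median log2 fold change of 0.02. TRIM28, the KRAB-binding scaffold, rose from 4328, 4541 and 4425 counts to 5208, 4819 and 5975 (log2 fold change 0.30 ± 0.05, edgeR's quasi-likelihood test, adjusted p = 0.0048). SETDB1, the methyltransferase it recruits, fell from 873, 918 and 905 counts to 656, 641 and 639 (log2 fold change -0.43 ± 0.08, edgeR's quasi-likelihood test, adjusted p = 0.0067). Both calls were kept in all 6 fits that left out a sample.

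Other H3K9 methyltransferases also moved both ways. SUV39H2 and SUV39H1, which act on constitutive heterochromatin, rose by 1.34 ± 0.15 and 1.26 ± 0.29 on the log2 scale, and EHMT2, which dimethylates H3K9 in euchromatin, fell to -0.50 ± 0.10. HDAC1 rose (0.64 ± 0.07) while its paralogue HDAC2 fell (-0.49 ± 0.06). Of the HP1 proteins CBX1 and CBX5 rose, by 0.59 and 0.38 on the log2 scale, and CBX3 was not called (-0.03 ± 0.08). FAM208A, also named TASOR, a subunit of the HUSH silencing complex, had a value of -0.37 ± 0.06 and was called lower, and the HUSH subunit PPHLN1 was called higher at 0.25 ± 0.08, a call kept in 1 of 6 fits that left out a sample.

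Some members were unsteady between samples of a group. The highest sample was over 2-fold above the lowest in 31 members (15.2%) within si-NC and in 30 (14.7%) within si-METTL16 samples, beside 6.14% and 6.94% of all genes with a mean of at least 20 counts. ZNF264 is an example, with 889, 611 and 448 counts in si-NC and 817, 80 and 78 in si-METTL16 samples, and ZNF90 is another, with 17, 7 and 19 against 22, 21 and 156. Neither was called, and both were picked out for their spread. The shares above were not matched for level, and members had a lower median of the mean count (147, beside 392.5 over all genes tested). The calls of 39 of the 64 members called higher were kept in all 6 fits that left out a sample.

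Whether counting used the strand is not given in the sources used here, and 107 members overlap a gene on the opposite strand. In these, 33 were called higher and 1 lower (median log2 fold change 0.34), against 31 and 5 of the 97 that do not overlap one (0.35). Among 52 members that overlap no gene on either strand 15 were called higher and 1 lower, with a median of 0.25. The largest log2 fold change among these 52 was 1.14. ZNF702P, ZNF616, ZNF45, ZNF473 and ZNF726, which had larger values, were not among them.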

How the data were processed

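RNA was measured in 6 PANC-1 samples, 3 per group, and groups and replicate numbers were taken from the sample titles. The authors deposited 1 table of unnormalized counts per gene and of FPKM values, which are those counts divided by gene length and library total. The submitters' processing notes name HISAT2 2.0.4, StringTie 1.3.0 and GRCh38 (hg38), and the study names the HiSeq 2500. The annotation release and the use of strand are not given in the sources used here. Counts divided between near-identical copies of a family, and between overlapping genes, depend on that processing.

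The 6 count columns were scaled by TMM and filtered with filterByExpr (minimum count 10), and 15089 genes entered the quasi-likelihood test of edgeR 4.0.16 (glmQLFit, glmQLFTest; R 4.3.3). A gene was called at a Benjamini-Hochberg adjusted p below 0.05. Each SE was derived from the F statistic. The common biological coefficient of variation was 16.5%, and p-values measure the spread between these samples. A count of 0 allows up to 3 counts, which is 0.167 to 0.192 CPM in these samples, for counting error only. The smallest p of an exact permutation test of 3 against 3 is 0.1, so none was used for single genes. Scripts were tested on simulated counts.

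Fingers (C2H2 with a spacing of 12 residues) and the KRAB pattern (first 250 residues) were searched in translated GENCODE release 44 transcripts of 199 members. Of the 204 members 83 have the same start and end there as in the deposited table, whose coordinates are given for genes. Promoters came from RefSeq (GRCh38.p14).

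Named members were the 5 highest and 5 lowest called changes with groups that do not overlap, the 3 of highest FPKM, the lowest adjusted p of each cluster of at least 3 members, members with a known role, lettered copies, and those nearest the mean count of 20; others are said to have been picked out for their values. The members, the co-repressor list and the marker lists were chosen with earlier results of these data known, and 1 marker is not reported here. Alternatives were a block for replicate number, leaving out each sample, other filters and scalings, DESeq2 1.42.0, limma 3.58.1 on voom values and on log2(FPKM + 1) and log2(FPKM + 0.1), an adjusted p under 0.01, other mean counts and other cluster distances.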

Additional observations from a re-analysis of the deposited data

How the results depend on the processing

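Higher calls outnumbered lower calls in the members under every alternative run. Leaving out each sample gave 48 to 55 members called higher (23.5% to 27.0%, against 14.2% to 15.3% of all genes). It gave 4 to 5 lower (1.96% to 2.45%, against 12.8% to 14.2%). The median log2 fold change was 0.27 to 0.38 (0.27 without si-NC replicate 1). In the same fits 7 to 9 co-repressor genes were called higher (21.9% to 28.1%) and 6 to 8 lower (18.75% to 25%). An adjusted p under 0.01 gave 34 members higher (16.7%, against 11.0% of all genes) and 2 lower (0.98%, against 9.08%). It also gave 6 co-repressor genes higher (18.75%). On log2(FPKM + 1) and log2(FPKM + 0.1), where 106 members reached a mean of 1 FPKM, limma called 37 and 36 higher, with a median of 0.19 for the former. These were 34.9% and 34.0% of the 106 members, against 19.9% and 19.8% of all genes in those fits. With a cluster distance of 2 Mb the highest cluster median was 0.47 and the lowest 0.16, since the cluster of negative median was then joined to a neighbour. DESeq2 called 63 higher (30.9%, against 18.4% of all genes) and 8 lower (3.92%, against 17.3%).

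A replicate block in the fit gave 56 members called higher and 6 lower, 54 of the former shared with the fit without it. Deviations of samples with the same number correlated by 0.025, 0.037 and 0.030, so the numbers were not taken to pair the samples. The values of 3 members that were not called turned direction when a sample was left out, namely ZNF331 (-0.091 to 0.015, positive without si-METTL16 replicate 2), ZNF324B (-0.53 to 0.23, positive without si-METTL16 replicate 1 and at 0.08 without si-NC replicate 2) and ZNF878 (-0.33 to 0.71, negative without si-METTL16 replicate 2). Of the other values of named genes, 38 lost and 2 gained a call under an alternative, and 526 kept their status, called or not called. The cause was not tested. Depth limits the members of 20 to 50 counts, whose median SE was 0.35.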

Other observations

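Zinc finger genes of chromosome 19 with other names gave few values. Of 17 genes whose names begin with ZFP, ZSCAN, ZIM, ZIK or PEG3, with ZFP36 left out, 5 were tested. Most of the others had almost no counts. The 17 include the antisense transcript ZIM2-AS1 and ZSCAN5DP, whose name marks a pseudogene. ZSCAN5A rose from 81, 84 and 124 counts in si-NC to 175, 241 and 188 in si-METTL16 samples, a log2 fold change of 1.12 ± 0.23 (edgeR's quasi-likelihood test, adjusted p = 0.0081). ZSCAN22 rose by 0.51 ± 0.16 on the log2 scale, with 171, 172 and 145 counts against 264, 200 and 212. ZFP14, a neighbour of ZNF565, had 324, 350 and 321 counts against 271, 219 and 263 and was called lower. ZFP82 had 244, 286 and 318 counts against 245, 262 and 353 and was not called. ZFP30, between ZNF793 and ZNF540, had 191, 194 and 206 counts in si-NC samples but 202, 754 and 783 in si-METTL16 samples, so its call (edgeR, adjusted p = 0.030) came from 2 of 3 samples. These genes were described after their values were seen.

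Of the antisense transcripts named after members, ZNF433-AS1 was called higher, with 50, 63 and 41 counts against 126, 94 and 109, a log2 fold change of 1.13 ± 0.22. ZNF790-AS1 (43, 44 and 56 counts against 88, 86 and 57) and ZNF529-AS1 (86, 79 and 85 against 85, 46 and 61) were not called. Without knowledge of strand in counting, reads of such a transcript and of its partner gene cannot be told apart.

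The 57 ZNF genes of the chromosome under the mean count were mostly silent in these cells. No count was found for 21 of them in any sample, 32 had a mean below 1, and 8 passed the filter on low counts, of which ZNF66 was called higher (4, 6 and 7 counts against 13, 17 and 17). ZNF93, a repressor of LINE-1 elements, had 2, 0 and 0 counts against 1, 4 and 9. The share of genes that reached the mean count differed along the chromosome. It was 24 of 26 from ZNF565 to ZNF573 (92.3%), 17 of 28 from ZNF101 to ZNF43 (60.7%) and 6 of 13 from ZNF724 to ZNF254 (46.2%).

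The share of members called higher also varied with gene length, together with the level. Length here is the one implied by the deposited counts and FPKM values, and is not the span on the chromosome. In 4 length classes that each hold an equal number of the genes tested, 1 of 21, 10 of 52, 25 of 67 and 28 of 64 members were called higher from the shortest to the longest, while the same share over all genes was 15.2%, 20.1%, 19.4% and 18.9%. The median log2 fold change of the members in these classes was 0.23, 0.22, 0.47 and 0.44. The median mean count of the members in the same classes was 85.2, 103, 132 and 290, and calls were also more frequent at higher counts, so length and level cannot be told apart here. Across the 204 members the log2 fold change followed length weakly (Spearman rho 0.13, given as a description).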
